A study of Mus musculus with 12 samples.

Results

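The interleukin-1 genes described here are the ligands Il1b, Il1a and Il18, the receptor antagonist Il1rn, the signalling receptor Il1r1, the decoy receptor Il1r2 and the shared receptor subunit Il1rap. They were chosen by symbol, 7 of 12393 genes, and all 11 of their probe sets among the 22626 on the array were read. The samples were 3 lungs and 3 livers of female nude NCR mice with an orthotopic 4T1 tumor (4T1 is a line from a mammary carcinoma of a BALB/c mouse), and 3 lungs and 3 livers of female nude NCR control mice given an orthotopic injection of phosphate-buffered saline (PBS). All were taken at day 7, and all 4 groups share the nude background, in which the thymus does not form and mature T cells are scarce. The design text says that both organs came from the same mice, so that lung and liver are not independent sets of animals. The sample labels call the organs of tumor-bearing mice pre-metastatic, and the comparisons ask what differs in lung and in liver at that stage.

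IL-1β and IL-1α bind the receptor encoded by Il1r1, which then takes up the accessory protein encoded by Il1rap and signals through MyD88 to NF-κB and MAP kinases. The pathway is restrained at the same step by the antagonist encoded by Il1rn, which occupies the receptor without recruiting the accessory protein, and by the decoy receptor encoded by Il1r2, which binds ligand but cannot signal. IL-1β and IL-18 are made as inactive precursors and cut by caspase-1 in inflammasomes, so the transcript level does not give the level of active cytokine. Neutrophils, monocytes and macrophages are well known sources of IL-1β, neutrophils carry much of the decoy receptor, and hepatocytes make the antagonist in the acute phase response.

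Values are log2 GCRMA expression values, 1 per probe set and array, with 3 arrays per group. A gene was tested if it lay above 4 on at least 3 of the arrays compared, and called if the limma adjusted p was under 0.05. Alb and Sftpc, markers of hepatocytes and of alveolar type II cells, gave the labelled organs. Sftpc was 15.70 to 15.86 in lung and 2.24 to 6.54 in liver, and Alb was 16.05 to 16.20 in liver and 8.96 to 14.65 in lung. The lung arrays of tumor-bearing replicate 1 and control replicate 3, with Alb at 14.39 and 14.65, held far more hepatocyte transcript than the other lung arrays. The labels give lung and liver arrays the same array numbers, group by group, without saying that a number marks a mouse. Comparisons between organs treat the 12 arrays as independent although the organs share mice, and p-values measure only the spread between these samples.

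Il1b and Il1rn, the members called between tumor-bearing and control mice, lie on mouse chromosome 2 (GRCm38.p6), Il1b at chr2:129364569-129371164 on the minus strand and Il1rn at chr2:24336860-24351491 on the plus strand. The 250 bases before their transcription starts are shown because these genes carry the changes described here. For Il1rn, RefSeq lists 3 starts, and the windows before the first and the second are given. The window before the third, at chr2:24345121-24345370, is not printed because most of it repeats the second. Capitals mark matches on either strand to an NF-κB-like motif (GGG, any 5 bases, then CC), a C/EBP-like motif (TTNNGNAA) or the TATA box letters TATAAA.
Il1b, chr2:129371140-129371389, minus strand: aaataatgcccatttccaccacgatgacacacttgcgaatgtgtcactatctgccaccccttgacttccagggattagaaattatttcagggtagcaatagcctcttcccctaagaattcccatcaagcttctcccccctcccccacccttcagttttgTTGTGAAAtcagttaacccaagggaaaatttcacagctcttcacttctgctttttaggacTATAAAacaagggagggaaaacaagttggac
Il1rn first start, chr2:24336610-24336859, plus strand: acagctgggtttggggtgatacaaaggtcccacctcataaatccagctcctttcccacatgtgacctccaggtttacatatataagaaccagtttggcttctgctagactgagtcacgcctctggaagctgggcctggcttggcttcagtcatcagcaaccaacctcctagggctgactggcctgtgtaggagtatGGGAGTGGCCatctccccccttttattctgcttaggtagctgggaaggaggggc
Il1rn second start, chr2:24345041-24345290, plus strand: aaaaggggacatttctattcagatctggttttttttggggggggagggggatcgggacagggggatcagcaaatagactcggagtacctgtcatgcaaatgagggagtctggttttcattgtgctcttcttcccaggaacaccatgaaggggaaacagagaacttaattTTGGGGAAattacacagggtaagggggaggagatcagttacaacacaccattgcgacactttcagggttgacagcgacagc
The Il1b window held the C/EBP-like match TTGTGAAA from -91 to -84 and the TATA letters from -31 to -26, counted back from the start. The first Il1rn window held the NF-κB-like match GGGAGTGGCC from -54 to -45, and the second the C/EBP-like match TTGGGGAA from -81 to -74. The third window held the most matches of the 3, the same TTGGGGAA (from -161 to -154 there), the overlapping C/EBP-like matches TTTTGGAA (from -65 to -58) and TTTGGAAA (from -64 to -57), and the NF-κB-like match GGGTTTTTCC from -51 to -42. Of 32851 RefSeq promoter windows of the same length, 45.8% held the NF-κB-like letters, 36.8% the C/EBP-like letters and 12.4% the TATA letters, so such matches are frequent and are given only as a description of the sequence.

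Il1b was higher in both organs of tumor-bearing mice. In lung it was 10.25, 11.18 and 10.08 in tumor-bearing mice and 6.92, 6.85 and 7.92 in controls. Every tumor-bearing lung lay above every control lung, and the means were 10.50 ± 0.59 and 7.23 ± 0.60 (SD, n = 3 each). Il1b rose 9.68-fold in lung (log2 change 3.27 ± 0.41 SE, 95% interval 2.28 to 4.27, limma adjusted p = 0.0391). With every probe set entered as its own row the adjusted p was 0.0503, and with 1 lung array left out it ran from 0.0761 to 0.143, while the log2 change stayed between 2.94 and 3.62. Without both lung arrays rich in hepatocyte transcript the log2 change was 3.75 and the adjusted p 0.206.

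In liver Il1b was 8.84, 7.59 and 7.49 in tumor-bearing mice and 4.96, 4.85 and 5.01 in controls. The groups did not overlap, the control livers lay within a narrow band, and replicate 1 was the highest of the tumor-bearing livers. Il1b rose 8.19-fold (log2 change 3.03 ± 0.37 SE, 95% interval 2.11 to 3.96, limma adjusted p = 0.0348). It passed without tumor-bearing replicate 1 (log2 change 2.60, adjusted p = 0.0146) and missed the threshold without any other single liver array, at adjusted p up to 0.142. The changes in lung and liver differed by 0.24 ± 0.59 SE (95% interval -1.07 to 1.56, limma adjusted p = 0.877). Over the 4 groups the order of Il1b was lung of tumor-bearing mice, liver of tumor-bearing mice (7.97 ± 0.75), control lung and control liver (4.94 ± 0.08), and liver of tumor-bearing mice overlapped with control lung.

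**Figure D1:**
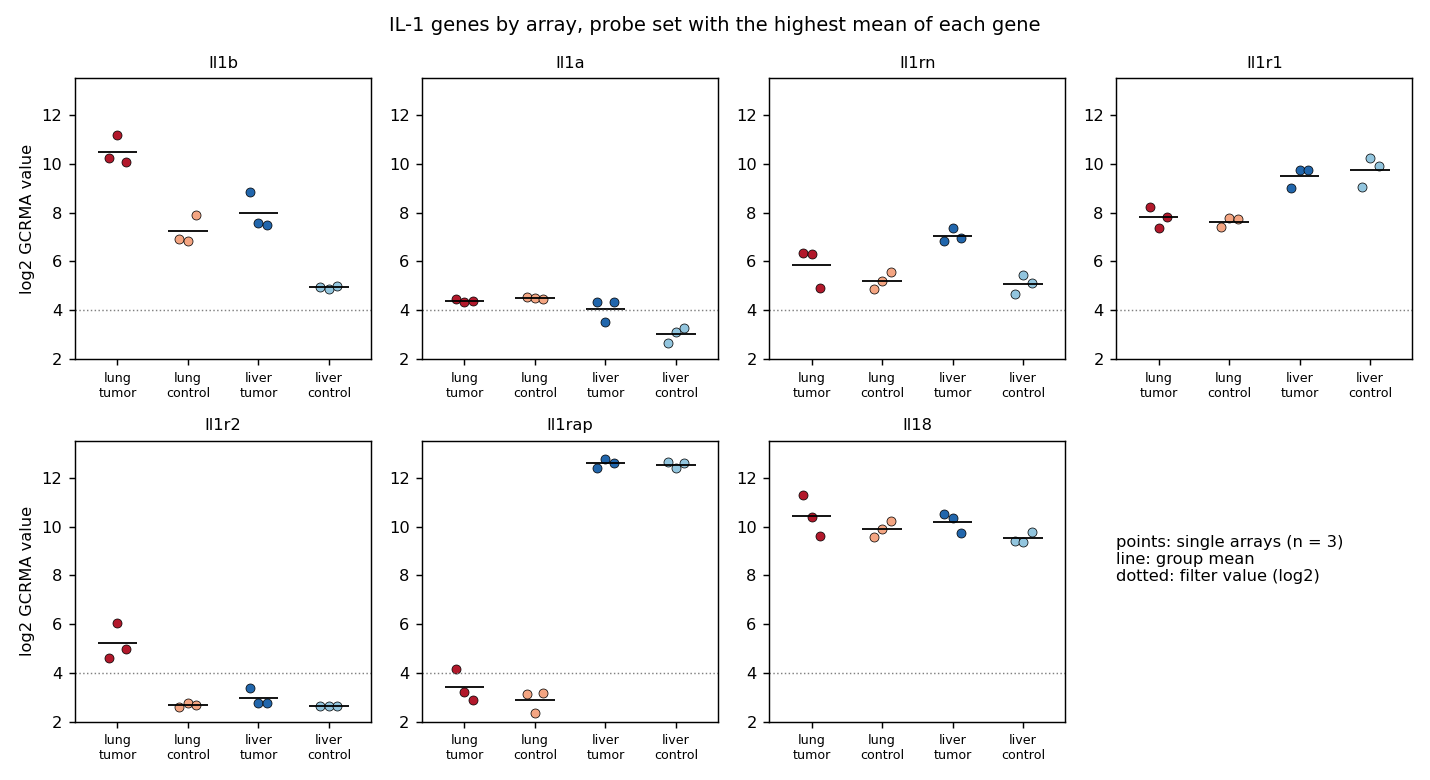
Log2 GCRMA values of each IL-1 gene (its probe set with the highest mean), 1 point per array, with the group mean as a line and the filter value of 4 dotted. Il1b is higher in tumor-bearing than in control mice in both organs without overlap, Il1rn separates the groups in liver, and Il1r2 lies above 4 on all 3 lung arrays of tumor-bearing mice and on none of the others.

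Il1rn, the antagonist, rose in liver. There it was 6.84, 7.37 and 6.97 in tumor-bearing mice and 4.68, 5.43 and 5.10 in controls, with no overlap. The rise was 3.96-fold (log2 change 1.99 ± 0.23 SE, 95% interval 1.41 to 2.57, limma adjusted p = 0.0338). With 1 liver array left out the log2 change ran from 1.79 to 2.17 and the adjusted p from 0.0604 to 0.122.
In the lungs Il1rn was 6.36, 6.31 and 4.90 in tumor-bearing mice and 4.89, 5.21 and 5.55 in controls. Tumor-bearing replicates 1 and 2 lay above all controls, and replicate 3 lay with the lowest of them. The log2 change was 0.64 ± 0.43 SE and did not pass (95% interval -0.41 to 1.69, limma adjusted p = 0.595). Without tumor-bearing replicate 3 it was 1.12, with an adjusted p of 0.133. The difference between the organs was -1.35 ± 0.53 SE (limma adjusted p = 0.227), so the data do not show that the change differed between lung and liver.

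The other probe sets of Il1rn gave less. Probe set 1423017_a_at was 3.63, 6.26 and 6.73 in livers of tumor-bearing mice and 3.63, 4.43 and 3.84 in control livers. Its tumor-bearing replicate 1 read with the controls, unlike on the probe set above, and the groups overlapped (log2 change 1.57 ± 0.84 SE, limma adjusted p = 0.297 over all probe sets). In lung it was 3.09 to 3.63 in tumor-bearing mice and 3.32 to 3.38 in controls, under the filter on every array. Probe set 1425663_at read between 2.05 and 2.28 on all 12 arrays, close to the lowest value of the arrays.

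Set beside each other within an array, Il1b changed more than Il1rn in lung. The log2 value of Il1b minus that of Il1rn was 3.89, 4.88 and 5.18 in lungs of tumor-bearing mice and 2.03, 1.64 and 2.37 in control lungs. The groups did not overlap, and the difference between the changes was 2.63 (two-sided exact permutation test, p = 0.1, the smallest that 3 arrays against 3 can give). In liver the same quantity was 2.01, 0.22 and 0.51 in tumor-bearing mice and 0.28, -0.58 and -0.09 in controls, which overlapped, with a difference of 1.05 (exact permutation p = 0.2). Tumor-bearing replicate 1, the liver with the highest Il1b and the lowest Il1rn of its group, set most of it, as the value was 0.50 without that array and at most 1.39 without any other array.

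Il1r2, the decoy receptor, lay above the filter only in lungs of tumor-bearing mice. It was 4.63, 6.04 and 4.97 there, against 2.59, 2.78 and 2.69 in control lungs. The groups did not overlap, and since all controls lay under 4 the level was at least 2.32-fold higher in tumor-bearing lungs, against that value. The fitted log2 change of 2.53 ± 0.36 SE missed the threshold (limma adjusted p = 0.053) and passed under some settings, such as median centring (adjusted p = 0.0418), or without tumor-bearing replicate 2 (log2 change 2.12, adjusted p = 0.0212). Il1r2 entered this test only through the arrays in which it was high.
In liver Il1r2 was 3.40, 2.78 and 2.78 in tumor-bearing mice and 2.63 in each control, all under the filter, and was not tested. The fitted lung change minus the fitted liver change was 2.17 ± 0.43 SE (95% interval 1.20 to 3.14, limma adjusted p = 0.0407), a value set by levels under the filter in 3 of the 4 groups. With values under 4 set to 4 it was 1.22 and did not pass (adjusted p = 0.14), and with the array number as a block the adjusted p was 0.155.

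**Figure D2:**
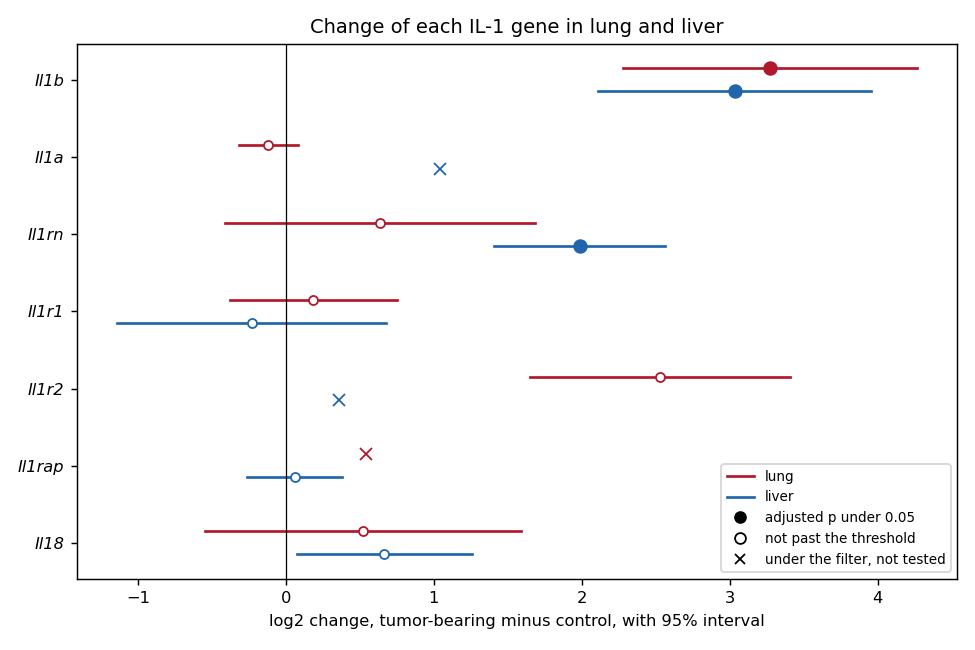
Log2 change of each IL-1 gene, tumor-bearing minus control, in lung (red) and liver (blue), with 95% intervals from limma (3 arrays per group). Filled points passed an adjusted p of 0.05, open points did not, and crosses are mean differences of genes under the filter. Il1b lies near 3 in both organs, while Il1rn passed in liver and Il1r2 was just short of the threshold in lung.

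Il1a, the other ligand of the same receptor, stayed near the filter. In the lungs it was 4.45, 4.32 and 4.37 in tumor-bearing mice and 4.54, 4.49 and 4.46 in controls. These groups do not overlap, yet the means differ by only -0.12 ± 0.08 SE (95% interval -0.32 to 0.08, limma adjusted p = 0.613). In liver it was 4.32, 3.50 and 4.32 in tumor-bearing mice and 2.67, 3.09 and 3.26 in controls. All tumor-bearing livers lay above all controls, by 1.04 in the mean, but only 2 arrays passed the filter value and the gene was not tested there.

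Il18, a ligand with its own receptor, was expressed in every sample. In the lungs it was 11.29, 10.38 and 9.60 in tumor-bearing mice and 9.57, 9.91 and 10.23 in controls, with wide overlap (log2 change 0.52 ± 0.44 SE, 95% interval -0.55 to 1.59, limma adjusted p = 0.675). In liver it was 10.50, 10.35 and 9.72 in tumor-bearing mice and 9.40, 9.37 and 9.79 in controls. Tumor-bearing replicate 3 fell within the control range, and the log2 change of 0.67 ± 0.24 SE did not pass (95% interval 0.07 to 1.26, adjusted p = 0.158).

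Il1r1, the signalling receptor, did not pass in either organ. Its lung values were 8.23, 7.39 and 7.84 in tumor-bearing mice and 7.42, 7.76 and 7.72 in controls (log2 change 0.19, 95% interval -0.38 to 0.75, limma adjusted p = 0.777). In liver it was 9.02, 9.74 and 9.74 in tumor-bearing mice and 9.05, 10.25 and 9.90 in controls (log2 change -0.23, 95% interval -1.14 to 0.68, adjusted p = 0.719). The groups overlapped in both organs, and the intervals reach 0.75 in lung and -1.14 in liver. In size these limits exceed the largest group SD, 0.42 in lung and 0.62 in liver, so changes beyond the array-to-array spread are not excluded.

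Il1rap read very differently on its 3 probe sets. The gene is known to give a membrane-bound form, needed for signalling, and a soluble form that is abundant in liver. Probe set 1449585_at, which the platform annotation ties to a RefSeq transcript, was 12.41, 12.78 and 12.61 in livers of tumor-bearing mice and 12.63, 12.38 and 12.61 in control livers. These overlap fully (log2 change 0.06, 95% interval -0.26 to 0.38, limma adjusted p = 0.797). In lung it was 4.18, 3.23 and 2.89 in tumor-bearing mice and 3.12, 2.36 and 3.19 in controls. Only tumor-bearing replicate 1 was above the filter, an array rich in hepatocyte transcript (Alb 14.39). Control replicate 3, the other lung array rich in hepatocyte transcript (Alb 14.65), read 3.19. The part of that transcript in these readings was not tested.
Probe set 1421844_at, annotated to an expressed sequence tag, was of similar level in both organs. In liver it was 5.82, 7.01 and 7.18 in tumor-bearing mice and 7.61, 8.15 and 7.92 in controls, lower in every tumor-bearing liver (log2 change -1.22 ± 0.39 SE, 95% interval -2.19 to -0.26). It did not pass (limma adjusted p = 0.129 over all probe sets). In lung it was 7.58, 7.73 and 7.87 in tumor-bearing mice and 7.34, 7.29 and 7.58 in controls (log2 change 0.32 ± 0.13 SE, adjusted p = 0.374). Lung change minus liver change was 1.55 ± 0.43 SE, with an adjusted p of 0.107. Probe set 1421843_at, annotated to the same tag, was 2.81 to 4.21 in livers of tumor-bearing mice and 4.02 to 4.80 in control livers, and 2.54 to 3.37 in lungs of tumor-bearing mice and 2.76 to 3.54 in control lungs. Which transcripts each probe set measures was not analysed here.

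**Figure D3:**
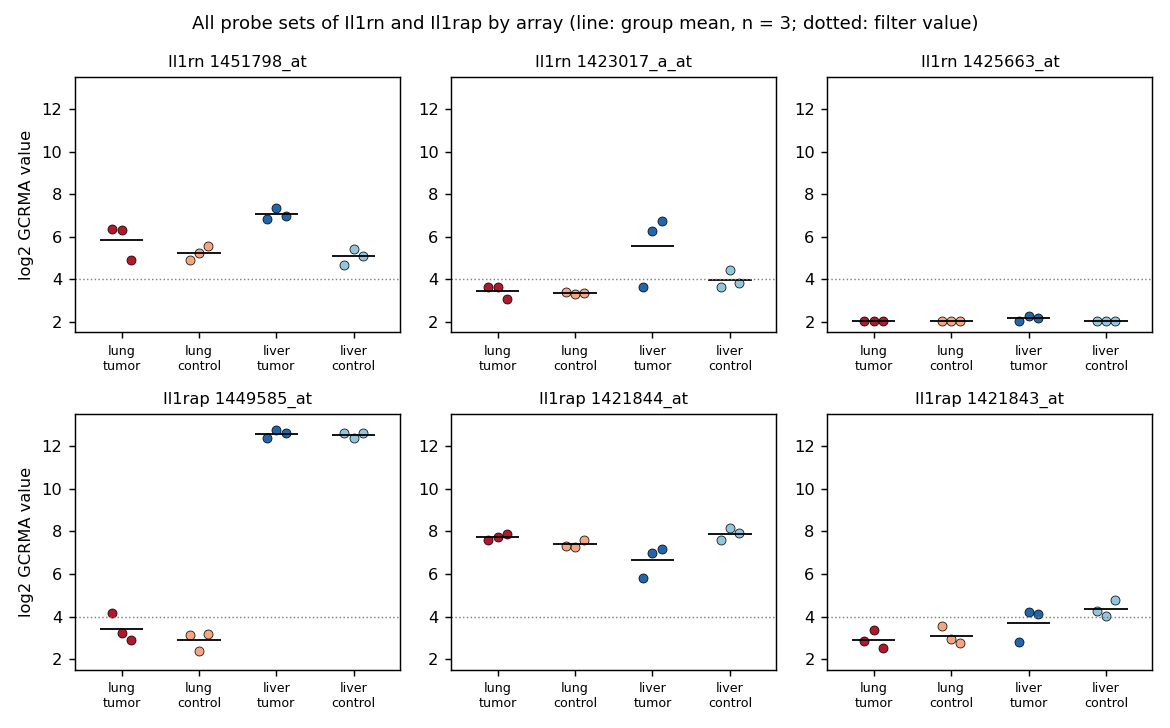
Log2 GCRMA values of all 3 probe sets of Il1rn (top) and Il1rap (bottom), 1 point per array, with the group mean as a line and the filter value of 4 dotted. For Il1rap, 1449585_at lies near 12.6 in liver and under 4 on all but 1 lung array, while 1421844_at reads 5.82 to 8.15 in both organs and is lowest in livers of tumor-bearing mice.

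In sum over the list, 1 of the 6 members tested in lung was called higher (Il1b) and 0 lower, against 0.62% of the 7907 genes tested called higher and 0.114% called lower. In liver 2 of 5 were called higher (Il1b and Il1rn) and 0 lower, against 0.635% and 1.23% of 7712 genes. At an unadjusted p under 0.05 the members numbered 2 in lung (Il1b and Il1r2) and 3 in liver, where 13.2% and 25.9% of all tested genes had such a p. In the difference between organs 1 of 7 was called (Il1r2, larger in lung), where 1.03% of 8433 genes were called larger and 0.522% smaller in lung. That call rests on a gene that passed the filter only through lungs of tumor-bearing mice, and 0 of the members were called by limma with values under 4 set to 4. Among tested members the groups did not overlap for Il1b and Il1r2 (higher) and Il1a (lower) in lung, and for Il1b and Il1rn (higher) in liver, against 8.99% of all tested genes higher and 9.57% lower in lung and 10.4% higher and 22.7% lower in liver. Il1r2 entered the lung tests only through tumor-bearing lungs, with every control under 4, so its lack of overlap was fixed by the filter. Among members measured in both lung groups, Il1b alone was higher without overlap. The median log2 change of the members tested was 0.58 in lung, Il1r2 included, and 0.67 in liver, and that of all tested genes -0.01 and -0.07.

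Control mice, also taken at day 7, show how the organs differ without a tumor. Of 6 members tested, Il1b and Il1a were called higher in control lung than in control liver and Il1rap and Il1r1 lower. Of all 8270 genes tested, 45.6% were called higher and 35.5% lower, so a call here says little by itself. Il1a passed the filter only through control lung, and Il1rap (1449585_at) only through control liver. For both, the lack of overlap was therefore fixed by the filter. Il1b was 4.89-fold higher in control lung (log2 difference 2.29 ± 0.30 SE, limma adjusted p = 0.000557). Il1a was 4.50 ± 0.04 in control lung and under 4 in every control liver, so it was at least 1.41-fold higher in control lung, taken against the value of 4 (adjusted p = 0.00023 on the measured values and 0.000508 with values under 4 set to 4). Il1r1 was 7.63 ± 0.19 in control lung and 9.73 ± 0.62 in control liver, 4.28-fold lower in lung (adjusted p = 0.00114). Il1rap on 1449585_at was at least 373-fold lower in control lung than in control liver, taken against the value of 4, and on 1421844_at 1.40-fold lower. Il1rn (5.22 ± 0.33 in control lung and 5.07 ± 0.37 in control liver) and Il18 (9.90 ± 0.33 in control lung and 9.52 ± 0.24 in control liver) overlapped between the organs and did not pass. Median centring of each array moved these lung-minus-liver values by -0.47 and left the 4 calls in place.

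Neutrophil transcripts moved with Il1b in both organs, with Il1r2 in lung, and with Il1rn and Il1a in liver. Each r here spans the tumor-bearing and control arrays of 1 organ. Values that differ between these groups therefore correlate, and r describes likeness only. Pearson's r with the log2 neutrophil marker sum, over 6 arrays per organ, was 0.91 for Il1b in each organ. It was 0.91 for Il1r2 in lung and 0.74 in liver, where Il1r2 lay under the filter. For Il1rn it was 0.59 in lung and 0.89 in liver, and for Il1a -0.82 and 0.90, where Il1a lay under 4 in every control liver. For Il1r1, Il1rap and Il18 it ran from 0.39 to 0.52 in lung and from -0.21 to 0.64 in liver. With the log2 monocyte and macrophage marker sum, r in liver was 0.61 for Il1b, 0.72 for Il1rn and 0.78 for Il1a. In lung it was 0.11, 0.10 and 0.17 for the same genes. For Il1r2 it was 0.09 in lung and 0.30 in liver, and for Il1r1 0.82 and 0.12. All tested genes were called higher in 0.62% of cases in lung and 0.635% in liver, and were higher without overlap in 8.99% and 10.4%. They were lower without overlap in 9.57% and 22.7%. These shares apply to the counts of every marker and gene list below. Of 17 neutrophil markers on the array, 13 were tested in lung, but 6 of them (Cxcr2, Mmp8, Ltf, Camp, Cd177 and Clec4e) lay under 4 in every control lung. These 6 entered through the tumor-bearing lungs alone, and they hold 5 of the 6 calls. The other 7, measured in both groups, were each higher in tumor-bearing lungs without overlap, with log2 changes of 0.81 to 6.10. Of these only Ngp, a neutrophil granule protein gene, was called (11.93 ± 0.42 in tumor-bearing and 5.82 ± 1.33 in control lungs, limma adjusted p = 0.0273). The log2 of the summed level of all 17 markers was 16.53 to 16.75 in lungs of tumor-bearing mice and 12.99 to 14.60 in control lungs. It was carried mostly by S100a8 (15.42 ± 0.07 in tumor-bearing and 12.60 ± 0.98 in control lungs) and S100a9 (15.56 ± 0.11 and 12.60 ± 0.88). In liver 5 were tested, 0 were called by limma (3 at an unadjusted p under 0.05), and 3 were higher without overlap. The log2 sum was 10.49 to 11.42 in livers of tumor-bearing mice and 8.64 to 9.83 in control livers. In tumor-bearing livers it was carried mostly by S100a8 (9.72 ± 0.83) and S100a9 (9.51 ± 0.40). In control livers these averaged 5.51 ± 2.76 and 6.38 ± 1.47, less than Fpr2 at 7.91 ± 0.27. The level of Fpr2 in tumor-bearing livers was 8.21 ± 0.44. Of the 17 markers 12, among them Ltf, Camp, Mmp8 and Cd177, were under 4 on every liver array of both groups. Liver replicate 1 of the tumor-bearing mice had both the highest Il1b and the highest neutrophil sum of the livers. Among the lungs the neutrophil sum was highest in tumor-bearing replicate 1 (log2 16.75) and Il1b in tumor-bearing replicate 2 (11.18). Monocyte and macrophage markers gave log2 sums of 15.81 to 16.11 in lungs of tumor-bearing mice and 15.80 to 15.98 in control lungs, and 12.83 to 13.09 in livers of tumor-bearing mice and 12.66 to 12.83 in control livers. In either organ 0 were called by limma (7 of 11 in lung and 0 of 10 in liver at an unadjusted p under 0.05). The lung sums were carried by Lyz2 (15.84 ± 0.16 in tumor-bearing and 15.77 ± 0.09 in control lungs). In lung the same 7 did not overlap, 6 higher and Mertk lower, against 8.99% and 9.57% of all tested genes. Of the 6, Msr1 and Itgam lay under 4 in every control lung, so they entered through the tumor-bearing lungs alone. The other 4 were measured in both groups. In liver 0 were higher without overlap and 1 was lower. The Kupffer cell markers, which define the resident macrophages of the liver, summed to 13.85 to 14.12 in livers of tumor-bearing mice and 13.41 to 13.78 in control livers. Of 5 tested, 0 were called by limma (2 at an unadjusted p under 0.05) and 3 were higher without overlap. B cell markers were also higher in lung, with 1 of 3 tested called and log2 sums of 8.59 to 9.23 in lungs of tumor-bearing mice and 6.38 to 6.80 in control lungs. In whole organs more cells of a type and more RNA per cell cannot be told apart, and the part of these cells in the levels of Il1b, Il1rn and Il1r2 was not tested.

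**Figure D4:**
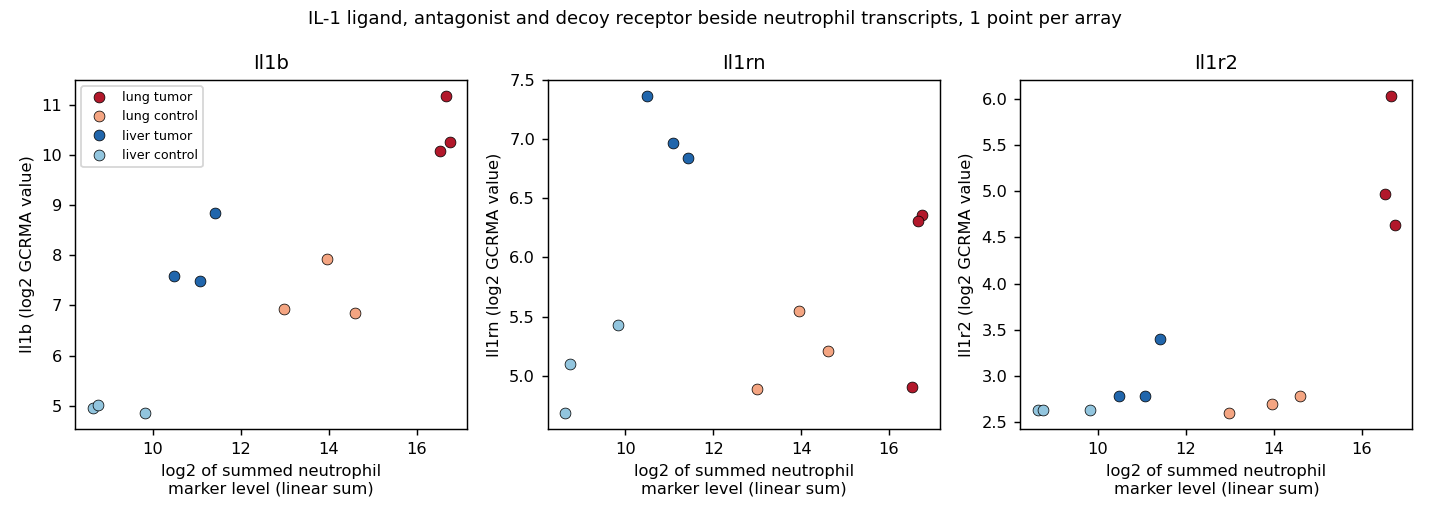
Il1b, Il1rn and Il1r2 (log2 GCRMA value) against the log2 summed level of 17 neutrophil markers, 1 point per array. Livers of tumor-bearing mice lie at neutrophil sums of 10.49 to 11.42, below the control lungs at 12.99 to 14.60, while their Il1b of 7.49 to 8.84 overlaps with that of control lungs and their Il1rn of 6.84 to 7.37 lies above all lung arrays.

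Of 14 tested genes of IL-1 receptor signalling 0 were called in lung and 0 in liver by limma, with 2 in each organ at an unadjusted p under 0.05. All tested genes had such a p in 13.2% of cases in lung and 25.9% in liver, and these shares apply to the unadjusted counts of every gene list. The list had median log2 changes of 0.05 and -0.08. In lung the largest were Myd88, the adaptor of the receptor (9.18 ± 0.09 in tumor-bearing and 8.59 ± 0.07 in control lungs, adjusted p = 0.0614), and Map3k8, a kinase of the MAP kinase branch (7.46 ± 0.47 and 7.89 ± 0.17, adjusted p = 0.538). In liver they were Tab3, which links TRAF6 to the kinase TAK1 (5.90 ± 0.21 in tumor-bearing and 6.39 ± 0.05 in control livers, adjusted p = 0.0855), and Mapk14, the p38α kinase (log2 change -0.27, adjusted p = 0.19).

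Of the genes of inflammasomes and IL-1 processing, 8 were tested in lung and 1 was called. Pycard, the adaptor that joins sensors to caspase-1, rose 2.33-fold in lung (7.34 ± 0.28 in tumor-bearing and 6.12 ± 0.05 in control lungs, limma adjusted p = 0.0391). In liver Pycard was under the filter, 6 genes were tested and 0 were called by limma (3 at an unadjusted p under 0.05). The largest there were Prtn3, a serine protease of granulocyte granules (11.19 ± 0.22 in tumor-bearing and 8.82 ± 0.84 in control livers, adjusted p = 0.0567), and Capn1, a calpain subunit (log2 change 0.36, adjusted p = 0.132). The sensor genes Nlrp3 and Aim2 were under the filter in both organs.

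Of the 6 other ligands of the family, 2 were tested in lung and 1 in liver, and 0 were called in either organ by limma, though all 3 tests gave an unadjusted p under 0.05. The alarmin gene Il33 was 10.86 ± 0.19 in tumor-bearing and 11.46 ± 0.12 in control lungs, and 6.41 ± 0.30 in tumor-bearing and 5.89 ± 0.22 in control livers (limma adjusted p = 0.131 and 0.163). Il1f9, an IL-36 ligand gene, was 4.84 ± 0.30 in tumor-bearing and 3.98 ± 0.02 in control lungs (adjusted p = 0.0936) and read 3.97 on every liver array. Its lung change minus its liver change was 0.85 ± 0.18 SE (adjusted p = 0.0476), a value against liver readings with no spread that lie under the filter, in a gene that reached 4.53 to 5.12 in tumor-bearing lungs alone. Of the receptors and binding proteins, 3 of 6 were tested in lung and 2 in liver, with 0 called by limma (3 in lung and 1 in liver at an unadjusted p under 0.05). Il18bp, which neutralises IL-18, was 7.44 ± 0.55 in tumor-bearing and 5.68 ± 0.52 in control lungs and 9.67 ± 0.26 in tumor-bearing and 9.08 ± 0.26 in control livers (adjusted p = 0.125 and 0.134). The log2 change of Il18r1, the IL-18 receptor chain, was 0.46 in lung (adjusted p = 0.315) and that of Sigirr, an inhibitory receptor of the family, -0.08 in liver (adjusted p = 0.533).

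Known response genes of IL-1 gave 1 call. Of 30 on the array 15 were tested in lung and 15 in liver, and Socs3, a feedback inhibitor of cytokine receptors, was called in liver (11.42 ± 0.20 in tumor-bearing and 9.70 ± 0.07 in control livers, 3.30-fold higher, limma adjusted p = 0.0323). In lung 0 were called by limma (5 at an unadjusted p under 0.05). The largest there were Saa3, an acute phase gene (log2 change 2.13 ± 0.72 SE, adjusted p = 0.295), and Socs3 (1.57 ± 0.24 SE, adjusted p = 0.0585). The cytokine genes Il6, Csf2 and Csf3 and the chemokine gene Cxcl2 were under the filter in both organs. The median log2 change of the list was 0.04 in lung and -0.06 in liver, near that of all genes.

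**Figure D5:**
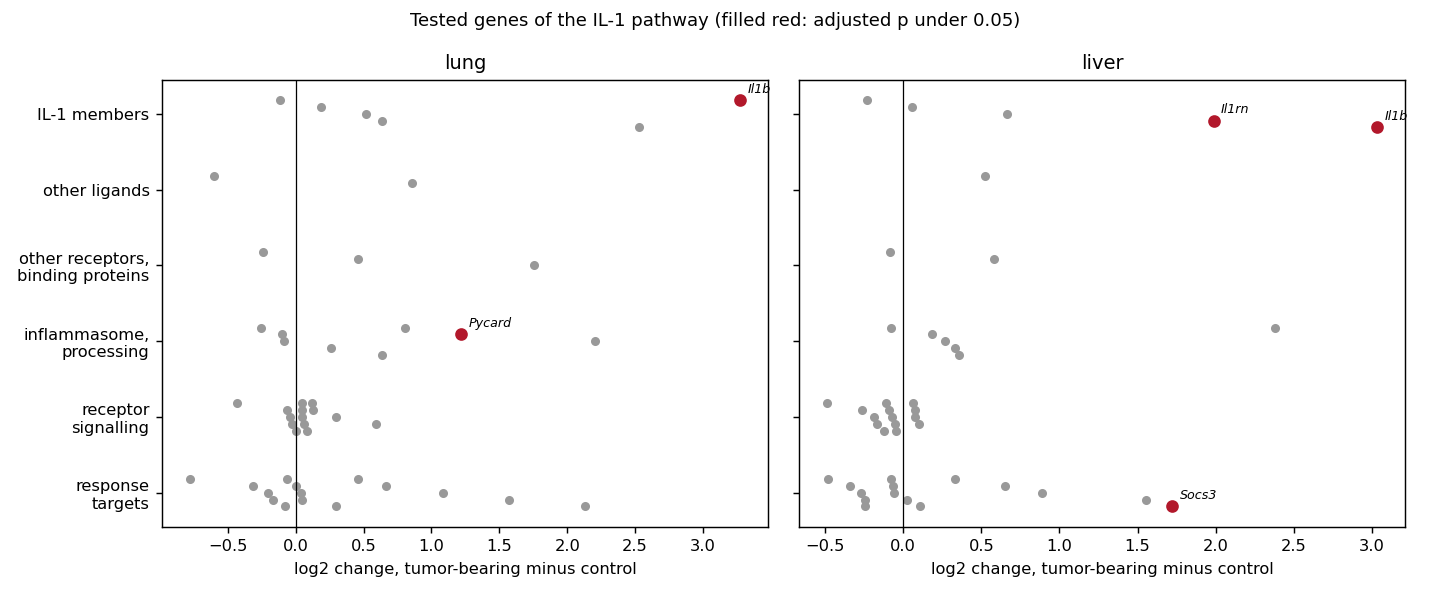
Log2 change, tumor-bearing minus control, of each tested gene of the IL-1 lists in lung (left) and liver (right), 1 point per gene, with genes at an adjusted p under 0.05 in red. Il1b stands out in both organs, with Pycard called in lung and Il1rn and Socs3 in liver, while the signalling genes lie between -0.49 and 0.59.

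By Pearson's r over the 12 arrays, with each organ centred on its mean, the genes whose pattern was most like that of Il1b among 7194 were Camk1d (r = 0.97), Socs3 (r = 0.97), Cirbp (r = 0.93), Cpeb4 (r = 0.93) and Igkv8-30 (r = 0.93). For Il1rn they were Myadm (r = 0.93), Il13ra1, Rpl22l1, Csf2rb and Ankrd49 (r = 0.91 each). These values describe likeness only, since the arrays share mice and fall into tumor-bearing and control sets. Cirbp, a cold-inducible RNA-binding protein gene, rose in lung by a log2 change of 1.55 (limma adjusted p = 0.0299) and had a log2 change of 1.44 in liver (adjusted p = 0.0529).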

How the data were processed

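Lung and liver RNA of 3 tumor-bearing and 3 control mice was measured on Affymetrix mouse arrays, 12 in all. The deposited log2 values, 1 per probe set, were made by the authors with GCRMA, per the submitters' processing notes, which also name limma, with no version or setting. GCRMA sets low signals near a shared lowest value (2.044), so changes of low genes are uncertain. Precision is limited by having 3 arrays per group.

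Of 22626 probe sets, 20380 had 1 gene symbol in the platform annotation, 691 several and 1555 none. For each of 12393 genes the brightest probe set by its mean was kept. Genes whose log2 value passed 4 on 3 or more of the compared arrays were tested with limma 3.58.1 (lmFit, eBayes) in R 4.3.3, with Benjamini-Hochberg adjustment over all genes tested. Other probe sets of the members were tested in a fit of all named probe sets. Members, lists and tests were chosen with earlier results of these data known. Named genes were all members, the called genes of each list (or the 2 with the largest change), and the 5 genes most like Il1b and Il1rn. Same-numbered arrays of the 2 organs correlated at 0.02 to 0.09 in their deviations from group means, so numbers were not used as pairs except in the alternative with the array number as a block. The limma tests of lung, liver and the organ difference were also run on simulated data with known changes. Those changes were set only in genes whose mean lay well above the filter, so genes low in all groups were not covered. Promoter sequences are from RefSeq (GRCm38.p6), which matched all 7 members. Alternatives covered filter, probe sets, normalization, floor, eBayes options, arrays fitted, replicate block (array number between organs) and each array left out.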

Additional observations from a re-analysis of the deposited data

Results flagged for a closer look

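For Il1r2 the fitted lung change minus the liver change was 2.17 (limma adjusted p = 0.0407). Only the 3 lungs of tumor-bearing mice were above the filter value of 4, so the gene was tested through the group in which it was high, and with values under 4 set to 4 the difference was 1.22 and did not pass (adjusted p = 0.14). Neutrophil markers were higher in the same lungs, and their part in this was not tested.

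Il1a differed in opposite directions in the 2 organs, with neither change called. Every lung of tumor-bearing mice lay below every control lung and every liver of tumor-bearing mice above every control liver, with a difference of changes of -1.16 that did not pass (limma adjusted p = 0.0965). With values under 4 set to 4 it was -0.33 (adjusted p = 0.232), and without liver replicate 2 of the tumor-bearing mice -1.43 (adjusted p = 0.0153). The lung values differ by only 0.01 at the closest, and 4 of the 6 liver arrays lie under the filter value.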

How the results depend on the processing

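Il1b kept its direction in lung under all 17 alternatives (log2 change 2.94 to 3.75) and in liver under all 16 (2.60 to 3.28), and Il1rn in liver under all 16 (1.23 to 2.17). Their calls were less stable: Il1b was called under 7 alternatives in lung and 9 in liver, and Il1rn under 7 in liver. The number of members called in lung, 1 in the fit reported, was 0 with no filter, with every probe set as its own row, with the replicate block and without the lung arrays rich in hepatocyte transcripts, and 2 with the mean of probe sets, median centring, the trend and robust options or all 12 arrays in 1 fit. With 1 array left out it was 0 to 1, the 1 being Il1r2. In liver, 2 in the fit reported, it was 0 with no filter or the replicate block, 1 with the mean of probe sets, and 0 to 1 with 1 array left out. In the difference between organs it was 0 with no filter, with the filter above 5, with quantile normalization, with values under 4 set to 4, with the array number as a block and without the hepatocyte-rich arrays, and 0 to 1 with 1 array left out. Between control organs it was 3 to 5. The cause of these shifts was not tested.

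Replicate numbers mark different mice in tumor-bearing and control groups, and the numbers do not pair them. With the replicate number as a block 0 members were called in lung and 0 in liver. Between organs the block was the array number, which lung and liver arrays share and which may mark a mouse. With it 0 members were called in the organ difference (Il1r2 at limma adjusted p = 0.155). Between control organs 5 were called (Il18 added, adjusted p = 0.0358). The replicate block left Il1b minus Il1rn at 2.63 in lung and 1.05 in liver. With 1 array left out these ran from 2.37 to 3.01 and from 0.50 to 1.39.

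Changes near 0 turned sign. Il1rap in liver was -1.22 on 1421844_at where every probe set had its own row, -0.61 as a mean of probe sets, and -0.032 to 0.16 with 1 array left out. With 1 array left out Il1r1 ran from -0.017 to 0.40 in lung and from -0.58 to 0.028 in liver, and the difference between organs ran from -0.10 to 0.67 for Il1b and from -0.58 to 0.26 for Il18. Between control organs Il1rn was -0.36 with quantile normalization, -0.33 with median centring, -0.025 without the hepatocyte-rich control lung and -0.050 to 0.32 with 1 array left out, and Il18 was -0.085 with median centring.

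Over all genes, 58 lung genes, 144 liver genes and 131 organ differences were called. With 1 array left out these were 5 to 33, 0 to 1 and 57 to 145, and under the other alternatives 0 to 231, 0 to 729 and 14 to 176.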
